A study of Mus musculus with 10 samples.

Results

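In a series of 10 RNA-seq libraries, 6 WT libraries cover the passage of adult neural stem and progenitor cells (NSC/NPCs) from growth as neurospheres to the first day without mitogens. They were chosen by their labels alone, as the 3 libraries of WT neurospheres (PRO) and the 3 libraries of WT cells at 2 + 1 DIV (DIFF), where DIV means days in vitro. The other 4 libraries, labelled p27KO, entered the model as groups of their own. They also counted in the filter on low counts, in the scaling and in the shared estimate of the spread between replicates. The cells were cultures from the subependymal zone of the brain of mice aged 10 weeks, and the WT genotype was shared by all 6 libraries. PRO cells were floating spheres of 3 DIV kept with epidermal growth factor (EGF, 20 ng/ml) and fibroblast growth factor (FGF, 10 ng/ml). DIFF cells came from secondary neurospheres, were seeded on Matrigel with FGF alone for 48 h, and were then kept for 24 h without mitogens in medium with 2% fetal bovine serum. Loss of EGF and FGF, attachment to Matrigel, time in culture and exposure to serum therefore changed together between the stages, and their parts in any difference below cannot be told apart. Whole cultures were sequenced, so that fewer cells of a type and less RNA per cell cannot be told apart either.

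EGF and FGF keep such cells dividing by signalling through receptor tyrosine kinases to the ERK and AKT kinases. Growth of this kind demands ribosomes, lipids and nucleotides, and the genes that supply them are often controlled as groups, by MYC for ribosome production, by SREBP factors for sterols and by ATF4 for amino acids. When mitogens are withdrawn, FOXO factors that AKT had held inactive can enter the nucleus, and signals such as BMP and Notch, which favour glial fate and quiescence in this tissue, act without that competition.

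Same-numbered PRO and DIFF libraries deviated from their group means together, and a fit blocked by that number is cited where it altered a call or count given here. Each gene's value is given below as counts per 1000000 counts of the library (CPM), in the order of replicates 1, 2 and 3. The totals of the 6 libraries ranged from 19190068 to 25291674 counts. A fold change is the fitted log2 ratio of DIFF to PRO, with its SE after ±, and genes are called UP or DOWN where the p-value of edgeR's quasi-likelihood test, adjusted by the Benjamini-Hochberg method over 12859 genes, was under 0.05. By that rule 4307 genes (33.5%) were UP and 4360 (33.9%) were DOWN, 67.4% in all, and 123 and 209 of them changed by a log2 value of 3 or more. The median over all genes tested was -0.0019. The PRO and DIFF libraries did not overlap in CPM for 71.9% of the genes. The counts of each gene group below are to be read against these shares. Genes named below for the size of their change were picked only where the stages did not overlap, so that their separation adds no support. Nothing in the labels says that libraries of a stage came from separate animals, so that p-values measure the spread between these samples. The p27KO libraries are included in the estimate of that spread.

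The identity of the cells was checked on 10 markers of neural stem and progenitor cells, and every one of them was counted in both stages, with sums of 6950 to 7760 CPM in PRO and 5700 to 6950 CPM in DIFF. The intermediate filament genes Nes and Vim were DOWN, Nes the more so (1669, 2012 and 1515 CPM in PRO and 238, 190.5 and 156 CPM in DIFF), and 5 markers were UP, among them the stem cell factor Sox2 (169.6, 226 and 219 CPM in PRO and 365, 369 and 375 CPM in DIFF). Sums over markers of microglia, fibroblasts, choroid plexus, erythroid cells and mature oligodendrocytes stayed at or under 2.34 CPM in every library. Endothelial markers summed to 13.8 to 50.4 CPM in PRO and 5.69 to 13.0 CPM in DIFF. Of the 6, Flt1 was DOWN (47.7, 11.5 and 14.5 CPM in PRO and 3.87, 0.953 and 1.03 CPM in DIFF; log2 fold change -3.71 ± 0.77) and Kdr UP (1.82, 1.64 and 2.26 CPM in PRO and 8.80, 9.78 and 4.27 CPM in DIFF; log2 fold change 1.99 ± 0.36), both receptors of vascular endothelial growth factor, while Cldn5 and Cdh5 were at 0 in all 6 libraries.

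The groups described here are 58 lists of genes, ordered by function, and families found by gene symbol. The lists held 1424 different genes, of which 1247 passed the filter on low counts and were tested. The filter removes genes under 1 CPM in 4 or more of the 10 libraries, among them most of those counted in one stage alone, so that the counts below are of members tested, not of all members.

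**Figure D1:**
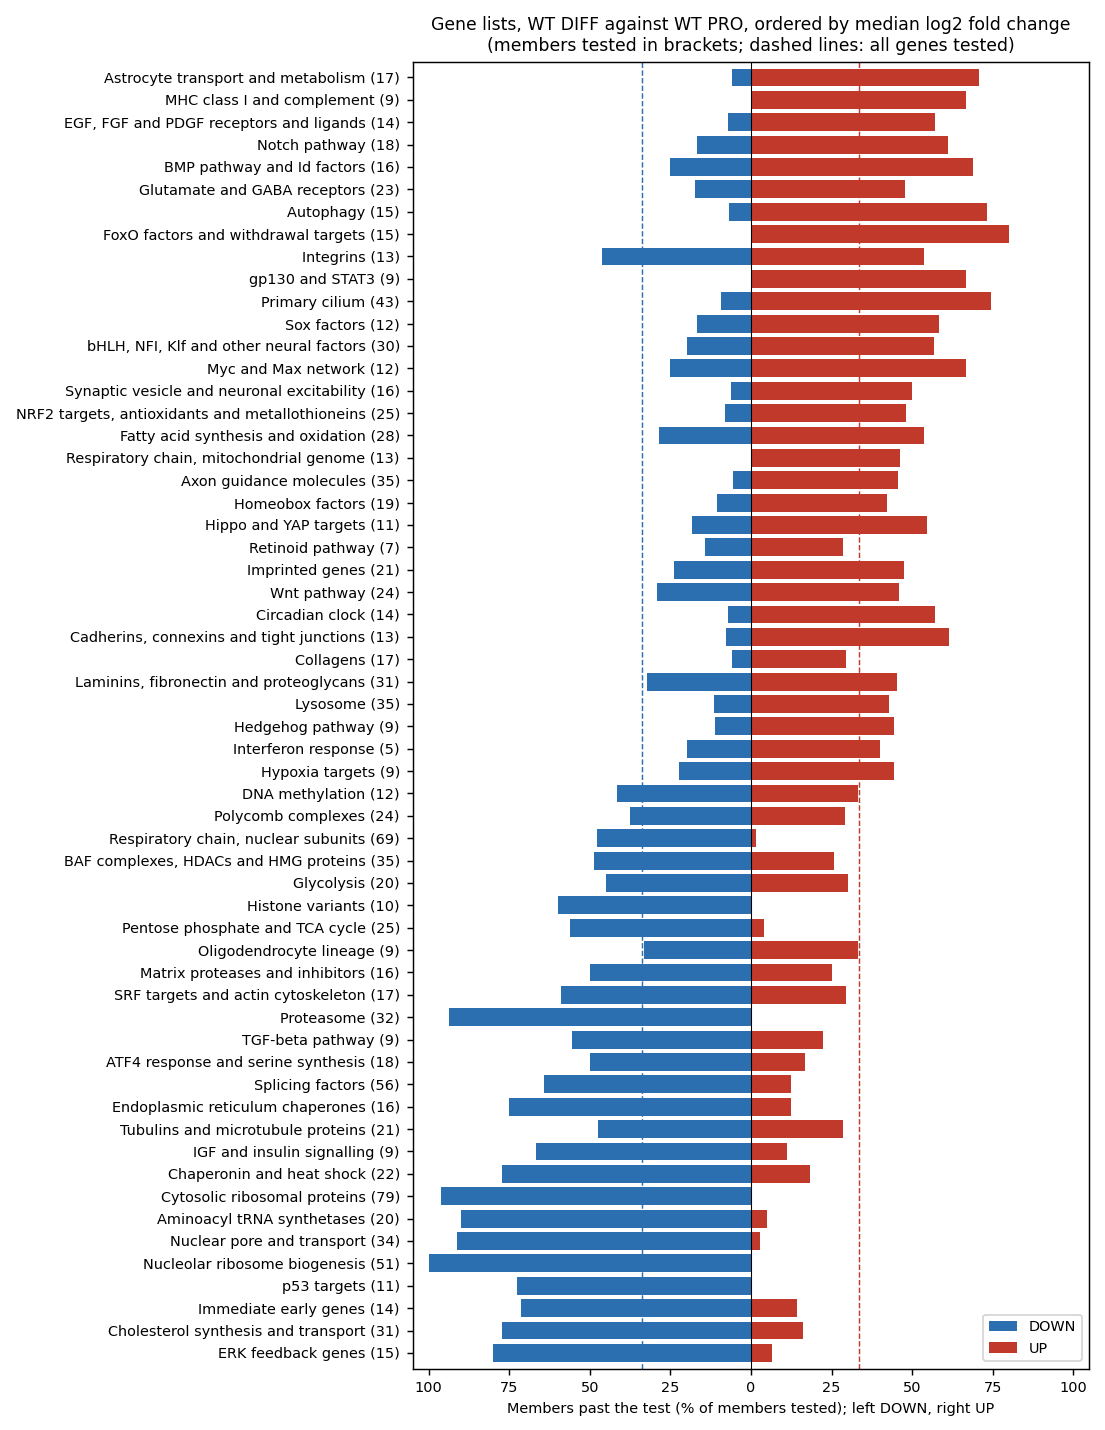
Share of the tested members of each of 58 gene lists that were UP (red, right) or DOWN (blue, left) in WT DIFF against WT PRO, ordered by median log2 fold change, with dashed lines at the shares of all genes tested, 33.5% and 33.9%. ERK feedback genes and cholesterol genes stand at the bottom, and astrocyte transport genes at the top.

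ERK feedback genes, which report on receptor tyrosine kinase signalling, had the lowest median of the 58 lists, -2.59. Of 15 members, 12 were DOWN and 1 was UP. Spry4, which encodes a Sprouty inhibitor induced by the pathway it inhibits, stood at 251, 227 and 236 CPM in PRO and 4.07, 6.22 and 5.89 CPM in DIFF (log2 fold change -5.46 ± 0.21, adjusted p = 6.79e-08). Its relative Spry1 went from 171, 162 and 136 to 6.87, 8.54 and 8.11 CPM (log2 fold change -4.32 ± 0.13). Dusp6, the phosphatase that inactivates ERK (chr10:99263231-99267489 on the plus strand, GRCm38), stood at 324, 279 and 270.4 CPM in PRO and 5.04, 18.4 and 13.8 CPM in DIFF (log2 fold change -4.54 ± 0.40, adjusted p = 1.55e-05). For all 3 genes the lowest PRO library lay more than 10-fold above the highest DIFF library. Etv5, an Ets factor downstream of FGF, was DOWN (464, 558 and 511 to 27.7, 67.3 and 53.5 CPM), and Dusp4, Dusp5, Etv4 and Phlda1 had log2 fold changes of -3.29, -2.59, -3.07 and -3.23. Spred1 (-0.28) and Errfi1 (0.00) did not pass the test, and Il17rd, an FGF antagonist, was UP (0.92 ± 0.17).

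Of 14 immediate early genes tested, 10 were DOWN and 2 UP, with a median of -1.51. Egr1, a zinc finger factor induced within minutes of growth factor addition, stood at 158, 127 and 112 CPM in PRO and 6.31, 5.64 and 3.36 CPM in DIFF (log2 fold change -4.71 ± 0.23). The AP-1 subunit gene Jun was DOWN as well (211, 173 and 168 to 20.8, 17.9 and 18.1 CPM). Klf4 was at 12.4, 27.4 and 24.6 CPM in PRO and 2.04, 1.66 and 2.21 CPM in DIFF, with the first PRO library well under the other two and still above each DIFF library. Btg2, an antiproliferative member of the same list, was UP (89.6, 79.2 and 67.00 to 165, 125 and 163 CPM; log2 fold change 0.93 ± 0.13). The cyclic AMP response element TGACGTCA was in 1 of 11 promoters of this list (9.09%), that of Btg2, in 1.79% of all promoters of the same length, in 3.47% of those of DOWN genes and in 2.61% of those of UP genes. Members removed by the filter included Egr2, a relative of Egr1 (5.11, 4.35 and 4.06 CPM in PRO and 0.305, 0.124 and 0.158 CPM in DIFF).

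The receptors and ligands of the pathway did not follow its targets. Of 14 genes for EGF, FGF and PDGF receptors and ligands, 8 were UP and 1 DOWN, with a median of 1.12. Egfr, which encodes the receptor for EGF, did not pass the test, and its libraries overlapped (589.8, 720.0 and 562 CPM in PRO and 528, 754 and 642 CPM in DIFF; log2 fold change 0.03 ± 0.17, adjusted p = 0.868). Fgfr1 did not pass it either (0.06 ± 0.12). Fgfr2 and Fgfr3, in contrast, were UP, the first from 23.03, 20.3 and 16.9 to 74.8, 89.5 and 86.9 CPM and the second from 55.2, 55.5 and 35.4 to 235, 213 and 180.3 CPM. Pdgfra, the PDGF receptor of oligodendrocyte progenitors, was UP with a wide error (7.14, 11.6 and 24.02 CPM in PRO and 87.4, 40.6 and 46.6 CPM in DIFF; log2 fold change 2.01 ± 0.61, adjusted p = 0.017). Its call was lost without PRO replicate 1, PRO replicate 2 or DIFF replicate 1, with adjusted p of 0.0537, 0.0569 and 0.0672. Among the ligands, Egf, Fgf1, Fgf2 and Nrg1 were UP by 1.08 to 1.29, and Pdgfa was DOWN (-0.60 ± 0.13).

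Genes of the AKT and FOXO branch rose. Of 15 FoxO factors and targets, 12 were UP and none DOWN, with a median of 0.83. Foxo1, Foxo3 and Foxo4 had log2 fold changes of 0.83, 0.93 and 0.86. Txnip, an inhibitor of thioredoxin and of glucose uptake, stood at 1.41, 2.27 and 4.93 CPM in PRO and 21.7, 42.1 and 50.8 CPM in DIFF (log2 fold change 3.72 ± 0.48, adjusted p = 1.32e-04). Sesn3, a sestrin that restrains mTORC1, rose from 305, 348 and 335 to 1243, 1112 and 1197 CPM (log2 fold change 1.84 ± 0.08), and Pik3ip1, an inhibitor of PI3-kinase, from 22.1, 19.7 and 17.1 to 83.7, 69.1 and 62.6 CPM (log2 fold change 1.86 ± 0.13). The libraries of the stages did not overlap for these 3 genes, as for 71.9% of all genes tested. Fbxo32 (-0.22) and Klf9 (-0.08), also targets of these factors, did not pass the test.

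Autophagy genes rose with them, 11 of 15 being UP and 1 DOWN, with a median of 0.92. Wipi1, which binds the lipid of the forming autophagosome, stood at 11.8, 15.5 and 10.5 CPM in PRO and 90.1, 104 and 85.2 CPM in DIFF (log2 fold change 2.88 ± 0.15, adjusted p = 2.60e-07). Gabarapl1, of the family that coats the autophagosome membrane, rose from 43.5, 45.95 and 41.7 to 90.9, 85.2 and 84.8 CPM. Becn1 was the member called DOWN (-0.25 ± 0.09), and its call held in 2 of the 6 fits that each left out a library, with adjusted p of 0.0529 to 0.0997 without PRO replicate 2 or 3 or DIFF replicate 2 or 3. The lysosome list was more divided, with 15 UP, 4 DOWN and 16 of 35 not past the test. Ctsl, Ctsb and Ctsf, which encode cathepsin proteases, were UP by 1.69, 0.92 and 0.99, whereas Glb1, the lysosomal beta-galactosidase, was DOWN (-0.82 ± 0.11). The 4 proton pump members tested lay between -0.18 and 0.21.

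Insulin-like growth factor (IGF) binding proteins, which hold IGF outside the cell, moved in both directions. Igfbp3 was DOWN (695, 698 and 619 CPM in PRO and 51.6, 107 and 83.5 CPM in DIFF; log2 fold change -3.06 ± 0.25) and so was Igfbp4 (89.3, 117 and 112 to 19.3, 15.6 and 11.7 CPM). Igfbp5 was UP in every library, most in replicate 1 (77.5, 69.5 and 74.3 CPM in PRO and 1653, 729 and 890.2 CPM in DIFF; log2 fold change 3.87 ± 0.32). The adaptor gene Irs2 was DOWN (-0.67 ± 0.12).

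**Figure D2:**
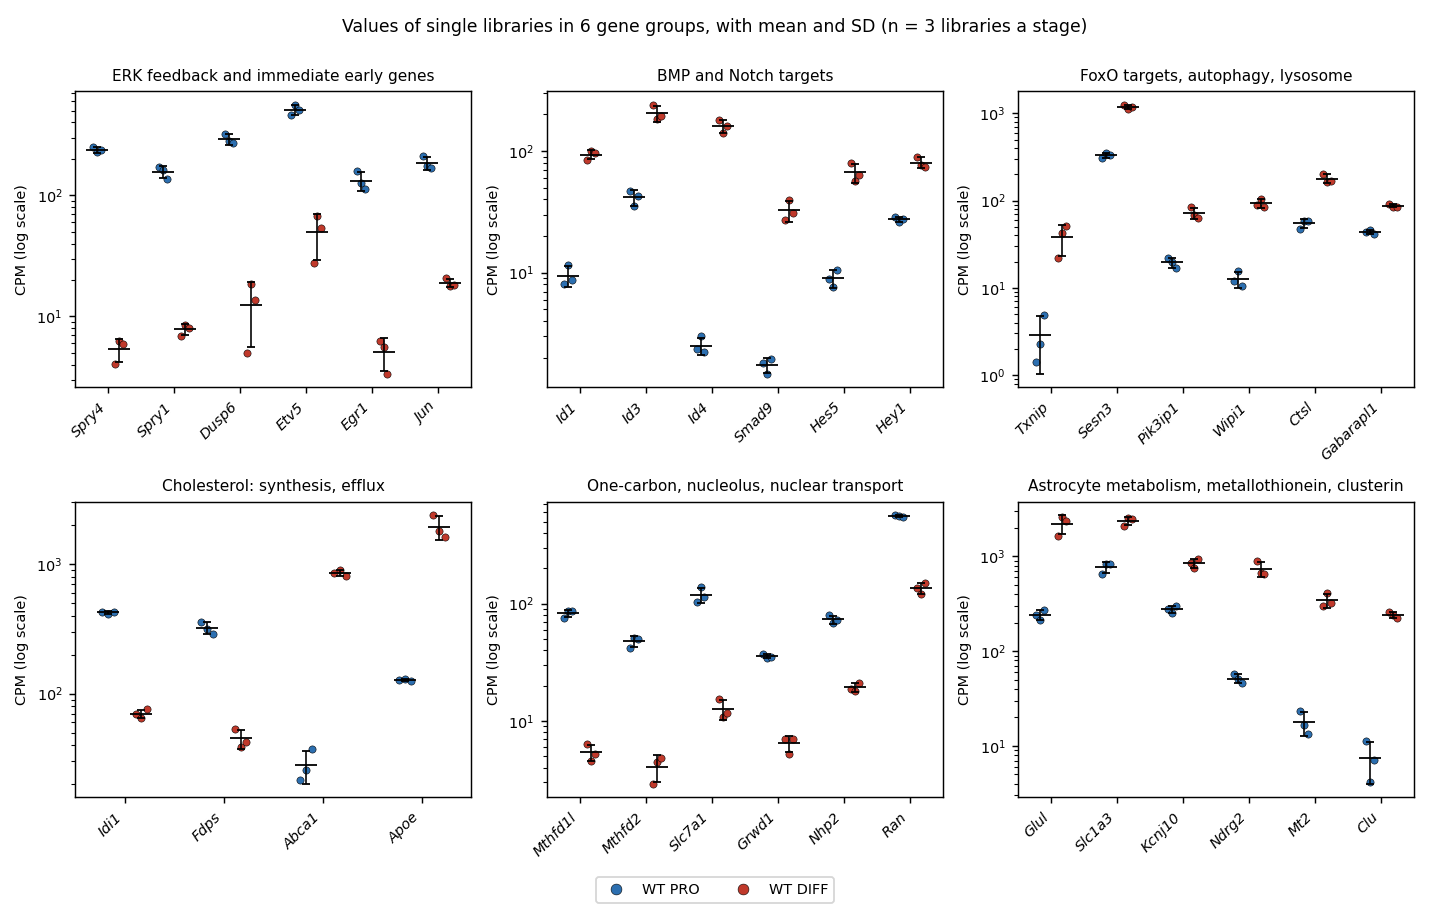
CPM (log scale) of members of 6 gene groups in the single WT PRO (blue) and WT DIFF (red) libraries, with mean and SD (n = 3 libraries a stage). Spry4 spans 227 to 251 CPM in PRO and 4.07 to 6.22 CPM in DIFF, and Id4 2.21 to 2.99 and 139 to 180 CPM. No gene shown overlaps between the stages, which was a condition for naming genes by the size of their change.

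Among the developmental signals, the BMP targets included the largest positive change of any list member, Id4. Of 16 members of the BMP list tested, 11 were UP and 4 DOWN, with a median of 0.94, and 8 of the 9 Smads and targets were UP. Id4, an inhibitor of bHLH factors (chr13:48261228-48266026 on the plus strand), was at 2.35, 2.99 and 2.21 CPM in PRO and 180.3, 139 and 160.2 CPM in DIFF (log2 fold change 5.97 ± 0.24, adjusted p = 9.80e-08). Id1 rose from 8.13, 11.6 and 8.71 to 84.1, 99.3 and 96.4 CPM and Id3 from 47.3, 35.1 and 42.5 to 239, 182 and 193 CPM. Smad9, which carries the BMP signal, stood at 1.82, 1.48 and 1.94 CPM in PRO and 27.2, 39.7 and 31.1 CPM in DIFF (log2 fold change 4.22 ± 0.36). Of 4 ligands listed, the 1 tested went the other way, since Bmp7 was DOWN (108, 99.8 and 91.1 CPM in PRO and 5.95, 4.35 and 3.84 CPM in DIFF; log2 fold change -4.42 ± 0.16). The filter removed Bmp2 (0.417, 0.558 and 0.369 to 1.32, 0.995 and 0.475 CPM) and Bmp6 (0, 0.0399 and 0.0461 to 0.509, 0.207 and 0.751 CPM). It also removed Bmp4, which was at or under 0.0798 CPM in every library. Both antagonists tested, Chrdl1 (-1.79 ± 0.22) among them, were DOWN. Smad6 and Nog, which inhibit the pathway and were removed by the filter, read 0.261, 0.0798 and 0.0922 CPM in PRO and 3.77, 3.27 and 4.43 CPM in DIFF for Smad6 and 0.573, 0.279 and 0.231 CPM in PRO and 14.3, 13.8 and 14.6 CPM in DIFF for Nog. Both were chosen for mention after their values were seen.

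Notch receptors rose together, and of 5 target factors tested 4 were UP and 1, Hes1, DOWN. Of 18 Notch pathway genes tested, 11 were UP and 3 DOWN, with a median of 0.99, and all 3 receptors measured (Notch1, Notch2 and Notch3) were UP by 1.16 to 1.76. The ligand gene Dll1 rose from 63.7, 68.1 and 63.7 to 166, 174 and 168 CPM (log2 fold change 1.37 ± 0.08). Of the bHLH repressors that Notch induces, Hes5 stood at 8.81, 7.58 and 10.6 CPM in PRO and 79.9, 56.2 and 63.9 CPM in DIFF (log2 fold change 2.88 ± 0.29, adjusted p = 2.39e-05), and Hey1 rose from 28.7, 26.05 and 27.8 to 89.9, 77.3 and 73.98 CPM. Hey2, removed by the filter, stood at 0.417, 0.399 and 0.369 CPM in PRO and 5.70, 2.90 and 3.68 CPM in DIFF. Hes1 was DOWN (35.3, 33.98 and 32.00 CPM in PRO and 9.87, 5.97 and 9.45 CPM in DIFF; log2 fold change -2.02 ± 0.16, adjusted p = 3.60e-06). Hes1 and Hes5 thus changed in opposite directions. Since neither overlapped between the stages, this held by necessity in each of the 3 same-numbered pairs of libraries. Notch3 is also a mural cell marker, and the sum of the 6 mural markers went from 62.2 to 87.2 CPM in PRO to 226 to 321 CPM in DIFF, nearly all of it Notch3. Pdgfrb went from 0.0521, 0.199 and 0.277 CPM to 2.19, 3.03 and 3.72 CPM, and the other 4 were at or under 0.672 CPM in each library.

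Wnt genes were divided, with 11 of 24 UP and 7 DOWN. The receptor genes Fzd10 (35.7, 42.8 and 30.9 to 3.36, 4.43 and 4.90 CPM; log2 fold change -3.11 ± 0.18) and Fzd1 (-1.31 ± 0.18) were DOWN, and Fzd3 (168, 170.2 and 154 to 423, 539.7 and 503 CPM; log2 fold change 1.57 ± 0.11) and the effector Tcf7l1 (1.75 ± 0.12) were UP. Axin2, the usual readout of the pathway, did not pass the test (49.3, 42.1 and 45.5 CPM in PRO and 47.3, 38.1 and 42.7 CPM in DIFF; log2 fold change -0.11 ± 0.14). In the Hedgehog list, Ptch1, which is both receptor and target, rose from 132, 172 and 175 to 609, 498 and 546 CPM (log2 fold change 1.78 ± 0.12), and the co-receptor gene Boc from 8.96, 8.94 and 6.55 to 59.6, 76.8 and 64.9 CPM (log2 fold change 3.03 ± 0.17). Gli1, the other common readout, was under 0.25 CPM in every library.

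In the TGF-beta list 5 of 9 genes were DOWN and 2 UP, and in the retinoid list 2 of 7 were UP and 1 DOWN. Il6st, which encodes the gp130 receptor shared by LIF and CNTF, stood at 117, 140.1 and 119.8 CPM in PRO and 689, 774 and 672 CPM in DIFF (log2 fold change 2.49 ± 0.10, adjusted p = 8.92e-08), and Lifr was UP too (1.02 ± 0.17). Socs3, a target of this receptor, did not pass the test (0.19 ± 0.16). In the Hippo list 6 of 11 genes were UP and 2 DOWN. The targets Ccn1 (5.37, 3.67 and 3.83 to 19.9, 43.1 and 29.9 CPM; log2 fold change 2.85 ± 0.29), Axl (2.79 ± 0.16) and Amotl2 (2.43 ± 0.13) rose, whereas Amotl1 was DOWN (338, 390.2 and 404 to 109, 123 and 126 CPM; log2 fold change -1.67 ± 0.12).

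Genes for making ribosomes fell almost without exception. All 51 nucleolar genes for RNA polymerase I and rRNA processing were DOWN, with a median of -1.38, and so were 76 of the 79 cytosolic ribosomal protein genes, with a median of -0.92. Grwd1, a ribosome assembly chaperone, stood at 37.3, 34.4 and 35.3 CPM in PRO and 7.02, 5.26 and 7.08 CPM in DIFF (log2 fold change -2.48 ± 0.13, adjusted p = 2.88e-07). Nhp2, a protein of the particles that pseudouridylate rRNA, went from 79.2, 67.9 and 72.8 to 18.9, 17.9 and 21.1 CPM, and Ddx21, a nucleolar helicase, from 287, 303 and 320.1 to 85.7, 83.9 and 99.6 CPM. The medians of the nucleolar list in the 3 same-numbered pairs were -1.30, -1.44 and -1.36. Ribosomal protein genes took 2.31 to 2.46% of all counts in PRO and 1.09 to 1.37% in DIFF. Many of these genes have processed pseudogene copies, and reads shared with a copy make the count of a single member uncertain.

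The letters CACGTG, an E-box that MYC and other bHLH factors bind, were looked for on both strands of each promoter (the 250 bases before and 50 after the start site in RefSeq, GRCm38.p6). They were found in 13 of 55 promoters (23.6%) of tested members of the nucleolar list, in 7.15% of 32851 promoters in all, in 11.2% of those of DOWN genes and in 8.31% of those of UP genes. A match describes the sequence and is no evidence of binding. The windows of 30 bases show the match in capitals in the genes for the rRNA methyltransferase Nop2 (log2 fold change -1.74 ± 0.08, chr6:125131811-125131840, plus strand), the processing factor Utp18 (log2 fold change -1.03 ± 0.09, chr11:93885769-93885798, minus strand) and the polymerase I initiation factor Rrn3 (log2 fold change -0.99 ± 0.07, chr16:13780639-13780668, plus strand), starting 60, 20 and 48 bases before the start site.
Nop2: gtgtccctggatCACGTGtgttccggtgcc
Utp18: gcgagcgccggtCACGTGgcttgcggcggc
Rrn3: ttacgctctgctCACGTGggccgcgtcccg

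Members of the Myc network moved in both directions. Myc was DOWN (188, 159.7 and 156 CPM in PRO and 44.6, 22.05 and 35.7 CPM in DIFF; log2 fold change -2.31 ± 0.24, adjusted p = 2.40e-05). Mycn (3.60, 3.07 and 2.81 CPM in PRO and 10.5, 15.6 and 14.6 CPM in DIFF; log2 fold change 2.10 ± 0.22) and Mycl (22.3, 22.1 and 19.6 to 77.2, 67.1 and 77.3 CPM; log2 fold change 1.78 ± 0.11) were UP. Of the 6 antagonists, which compete for the partner MAX, 5 were UP, with Mxi1 from 33.1, 30.7 and 28.2 to 99.8, 82.4 and 81.6 CPM and Mxd1 from 14.6, 15.4 and 14.6 to 45.5, 36.5 and 38.6 CPM, and Mxd3 was DOWN (-3.48 ± 0.29). Max did not pass the test (0.07 ± 0.07).

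Most genes for charging tRNA and for folding and degrading proteins fell too. Of 20 aminoacyl tRNA synthetase genes, 18 were DOWN (median of the list -0.93) and 1, Dars, was UP (128, 119.7 and 141 to 186, 171 and 213 CPM; log2 fold change 0.54 ± 0.15). Vars, for valine, had the largest negative change (131, 138 and 124 to 34.6, 23.7 and 28.1 CPM; log2 fold change -2.20 ± 0.13). Of 32 proteasome genes tested, 30 were DOWN in a narrow band, with a median of -0.53 and no member below -0.79 (Psmc4). All 8 subunits of the chaperonin that folds actin and tubulin were DOWN, with a median of -1.02, from Cct4 (-0.82 ± 0.11) to Tcp1 (-1.21 ± 0.09). Hspd1, the mitochondrial chaperonin, went from 652, 632 and 765 to 219, 237 and 302 CPM. The small heat shock protein gene Cryab ran against this list (8.75, 8.30 and 6.46 CPM in PRO and 113, 85.7 and 79.3 CPM in DIFF; log2 fold change 3.55 ± 0.19, adjusted p = 3.44e-07), as did Hspa4l (0.77 ± 0.09). In the endoplasmic reticulum, 12 of 16 chaperone genes were DOWN, Hspa5 with a log2 fold change of -0.73 ± 0.12, and Dnajb9 was UP (0.91 ± 0.08).

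Of 34 nuclear pore and transport genes, 31 were DOWN, with a median of -1.23. Ran, the GTPase that gives transport its direction, went from 565, 563 and 545 to 137, 121 and 149.5 CPM (log2 fold change -2.05 ± 0.09), and its exchange factor gene Rcc1 from 69.6, 66.4 and 66.03 to 15.9, 15.3 and 16.96 CPM. Of 56 splicing factor genes 36 were DOWN and 7 UP, and 6 of the 7 were tissue regulators rather than general factors. Msi1, an RNA-binding protein of neural progenitors, rose from 69.9, 47.3 and 44.2 to 337, 276 and 282 CPM (log2 fold change 2.46 ± 0.20), with Qk (0.57 ± 0.09) and Mbnl2 (0.44 ± 0.09). Ptbp1, the splicing repressor of non-neuronal cells, was DOWN (261, 255 and 241 CPM in PRO and 88.7, 80.5 and 85.8 CPM in DIFF; log2 fold change -1.58 ± 0.10), and its neural paralogue Ptbp2 was UP (150.3, 138 and 138 CPM in PRO and 219, 229 and 256 CPM in DIFF; log2 fold change 0.71 ± 0.09).

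Genes of the ATF4 response, which supplies amino acids and one-carbon units, moved in both directions. Mthfd1l, a mitochondrial folate enzyme (chr10:3973118-4167081 on the plus strand), stood at 76.1, 85.96 and 85.9 CPM in PRO and 6.31, 4.60 and 5.26 CPM in DIFF (log2 fold change -3.96 ± 0.13, adjusted p = 3.94e-08). Mthfd2, another mitochondrial folate enzyme, went from 41.9, 51.1 and 49.98 to 2.90, 4.48 and 4.82 CPM (log2 fold change -3.55 ± 0.20), and Slc7a1, a carrier of cationic amino acids, from 103, 138 and 115 to 15.4, 10.9 and 11.8 CPM (log2 fold change -3.24 ± 0.20). The list as a whole was mixed, with 9 of 18 members DOWN and 3 UP, and its medians in the same-numbered pairs were -0.12, -0.91 and -0.24. The serine synthesis gene Phgdh was UP (0.58 ± 0.12), and Psat1, the following enzyme, did not pass the test (-0.12 ± 0.09). Slc7a11, the cystine carrier, was UP (14.96, 19.5 and 19.3 to 68.3, 34.7 and 23.6 CPM; log2 fold change 1.22 ± 0.36, adjusted p = 0.0148) and lost its call with the replicate block (adjusted p = 0.0553) and without PRO replicate 1. The letters TGATGNAAT, which ATF4 dimers bind, were in 0 of 18 promoters of this list on either strand and in 0.965% of all promoters, which says only that they are not in these windows.

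Cholesterol synthesis fell as a unit while cholesterol export rose. Each of the 20 enzyme genes of the pathway was DOWN, with a median of -2.06. Idi1, the isomerase of the isoprenoid building blocks, stood at 431, 415 and 425 CPM in PRO and 69.2, 64.5 and 75.6 CPM in DIFF (log2 fold change -2.61 ± 0.14, adjusted p = 2.54e-07). Fdps, which joins them into farnesyl diphosphate, went from 359, 317 and 290.1 to 53.5, 38.96 and 42.6 CPM (log2 fold change -2.85 ± 0.13). In the opposite direction, Abca1, which exports cholesterol, stood at 21.5, 25.8 and 37.2 CPM in PRO and 849, 904 and 814 CPM in DIFF (log2 fold change 4.92 ± 0.20, adjusted p = 8.36e-08). Apoe, the apolipoprotein that accepts it, rose from 128, 129 and 126 to 2397, 1805 and 1619 CPM (log2 fold change 3.92 ± 0.18). Of the 5 genes for efflux and carriers tested, 4 were UP and none DOWN. For all 4 of these named genes the stages did not overlap, which was a condition for naming genes by the size of their change.

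The letters TCACCCCAC, a core of the sterol regulatory element that SREBP factors bind, were found on either strand in 1 of 33 promoters of this list (3.03%) and in 0.551% of all promoters. The one match, in capitals, lay 137 bases before the start site of Hmgcs1, an early enzyme of the pathway (log2 fold change -0.80 ± 0.10; chr13:119690204-119690233, plus strand). The other promoters lack these exact letters in this window.
Hmgcs1: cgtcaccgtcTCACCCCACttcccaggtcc

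Fatty acid genes did not follow cholesterol. Of 28 tested, 15 were UP and 8 DOWN, with a median of 0.45. The synthesis genes Acly (734, 627 and 627 to 223, 191 and 207 CPM; log2 fold change -1.69 ± 0.09), Elovl6 (-1.60 ± 0.08) and Fasn (1379, 1445 and 1384 to 744, 710.1 and 674 CPM; log2 fold change -0.99 ± 0.11) were DOWN, but the desaturase gene Scd2 was UP (5127, 5769 and 5413 CPM in PRO and 10563, 11273 and 10189 CPM in DIFF; log2 fold change 0.96 ± 0.09). Srebf1, the factor that drives fatty acid synthesis, rose from 135, 175 and 155 to 401, 383 and 334 CPM (log2 fold change 1.26 ± 0.14). In beta-oxidation 8 of 12 genes were UP, among them Cpt2 (1.25 ± 0.12) and Acsl6 (2.06 ± 0.19), and Cpt1a, the gate of the pathway, was DOWN with overlapping libraries (120.3, 124 and 94.9 CPM in PRO and 98.2, 79.4 and 70.2 CPM in DIFF; log2 fold change -0.46 ± 0.14) and lost its call without PRO replicate 2.

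In glycolysis 9 of 20 genes were DOWN and 6 UP, and isoforms of one step differed in direction. Pfkp was DOWN (37.4, 51.5 and 33.98 to 4.38, 13.97 and 8.78 CPM; log2 fold change -2.18 ± 0.41) and Pfkm UP (107, 116 and 111 to 352, 275 and 266 CPM; log2 fold change 1.41 ± 0.11), both being phosphofructokinases. Hk2 (-2.09 ± 0.22) and Ldha (-1.49 ± 0.11) were DOWN, and Aldoc, the aldolase of brain astrocytes, was UP (450.1, 267 and 394 to 1271, 806 and 924 CPM; log2 fold change 1.42 ± 0.24). Of the 25 genes of the pentose phosphate pathway and the TCA cycle, 14 were DOWN and 1 UP, with Rpia at -2.17 ± 0.14. G6pdx, which opens the pentose phosphate pathway, overlapped between the stages (90.2, 84.6 and 82.4 CPM in PRO and 91.8, 84.9 and 82.1 CPM in DIFF; adjusted p = 0.991).

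Nuclear and mitochondrial genes for the respiratory chain went different ways. Of 69 nuclear subunit genes, 33 were DOWN and 1 UP, with a median of -0.30. Of the 13 protein genes of the mitochondrial genome, 6 were UP and none DOWN, with a median of 0.43. mt-Nd4 rose from 3141, 3368 and 2756 to 6101, 7361 and 6333 CPM (log2 fold change 1.09 ± 0.13) and mt-Nd5 from 2345, 2544 and 2274 to 4567, 5514 and 4664 CPM. mt-Nd6 (1.16 ± 0.17) lies on the other strand of the same transcripts, and since nothing says that the counting used strand, its reads cannot be told from theirs. These 13 genes took 3.44 to 4.13% of all counts in PRO and 5.28 to 6.49% in DIFF. The nuclear genes for mitochondrial ribosomal proteins, found by symbol, were DOWN in 63 of 79 cases, with none UP.

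Stress programmes divided by kind. Of 11 p53 targets tested, 8 were DOWN and none UP, with a median of -1.40. The size of the fall differed between the same-numbered pairs, with medians of -2.13, -1.24 and -0.88. Cdkn1a, the p21 inhibitor of cyclin-dependent kinases, stood at 305, 284 and 181 CPM in PRO and 19.9, 75.1 and 61.3 CPM in DIFF (log2 fold change -2.30 ± 0.44, adjusted p = 0.00172), and the proapoptotic gene Bax had -1.40 ± 0.18 on the log2 scale. In the antioxidant list 12 of 25 were UP and 2 DOWN. All 3 metallothionein genes, which bind zinc and copper, were UP, and Mt2 stood at 23.2, 16.8 and 13.4 CPM in PRO and 299.9, 409 and 325 CPM in DIFF (log2 fold change 4.27 ± 0.22). Prdx6 (139, 139 and 148 to 667, 627 and 671 CPM) and Gstm1 (93.4, 104 and 99.9 to 349.6, 437 and 393 CPM) rose with them. Gsr (84.3, 91.9 and 93.7 to 18.6, 24.00 and 24.9 CPM; log2 fold change -2.01 ± 0.13) and Txnrd1 (-1.06 ± 0.07), which regenerate glutathione and thioredoxin, were DOWN, and the NRF2 readouts Nqo1 (0.51 ± 0.53) and Hmox1 (0.52 ± 0.21) did not pass the test, though Hmox1 did with the replicate block (adjusted p = 0.0215). Hypoxia targets had no common direction, with 4 of 9 UP and 2 DOWN, from Adm (35.02, 39.1 and 17.8 to 2.19, 1.78 and 0.554 CPM) to Pdk1 (13.6, 11.1 and 10.6 to 33.8, 44.1 and 40.2 CPM).

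Of 9 genes for MHC class I and complement, 6 were UP and none DOWN. Clu, a secreted chaperone of astrocytes, rose from 11.3, 4.15 and 7.19 to 259, 239 and 225 CPM (log2 fold change 5.01 ± 0.40) and the complement gene C4b from 1.15, 0.798 and 1.43 to 26.1, 22.8 and 15.9 CPM (log2 fold change 4.26 ± 0.29). H2-K1 did not pass the test (0.09 ± 0.11). Microglia express complement genes too, and their markers summed to 1.56 to 2.34 CPM in PRO and 1.27 to 1.28 CPM in DIFF. Few interferon genes were counted, and 5 of 15 were tested.

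Each of the 13 integrin genes tested was called, 7 of them UP and 6 DOWN. Itga4, the alpha chain that binds fibronectin and VCAM1 (chr2:79255426-79333123 on the plus strand), stood at 189.5, 327 and 338 CPM in PRO and 5.24, 6.96 and 4.47 CPM in DIFF (log2 fold change -5.69 ± 0.41, adjusted p = 3.94e-06). Itga5, of the classical fibronectin receptor, was DOWN (26.99, 27.7 and 21.7 to 10.3, 5.97 and 5.93 CPM). The laminin receptor chains Itga6 (231, 251 and 256 CPM in PRO and 708, 580.4 and 625 CPM in DIFF; log2 fold change 1.36 ± 0.10) and Itga7 (34.3, 12.7 and 13.00 to 68.8, 44.6 and 54.6 CPM) were UP, with Itga3 (2.48 ± 0.28). The stages did not overlap for any of these chains, as for 71.9% of all genes tested.

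**Figure D3:**
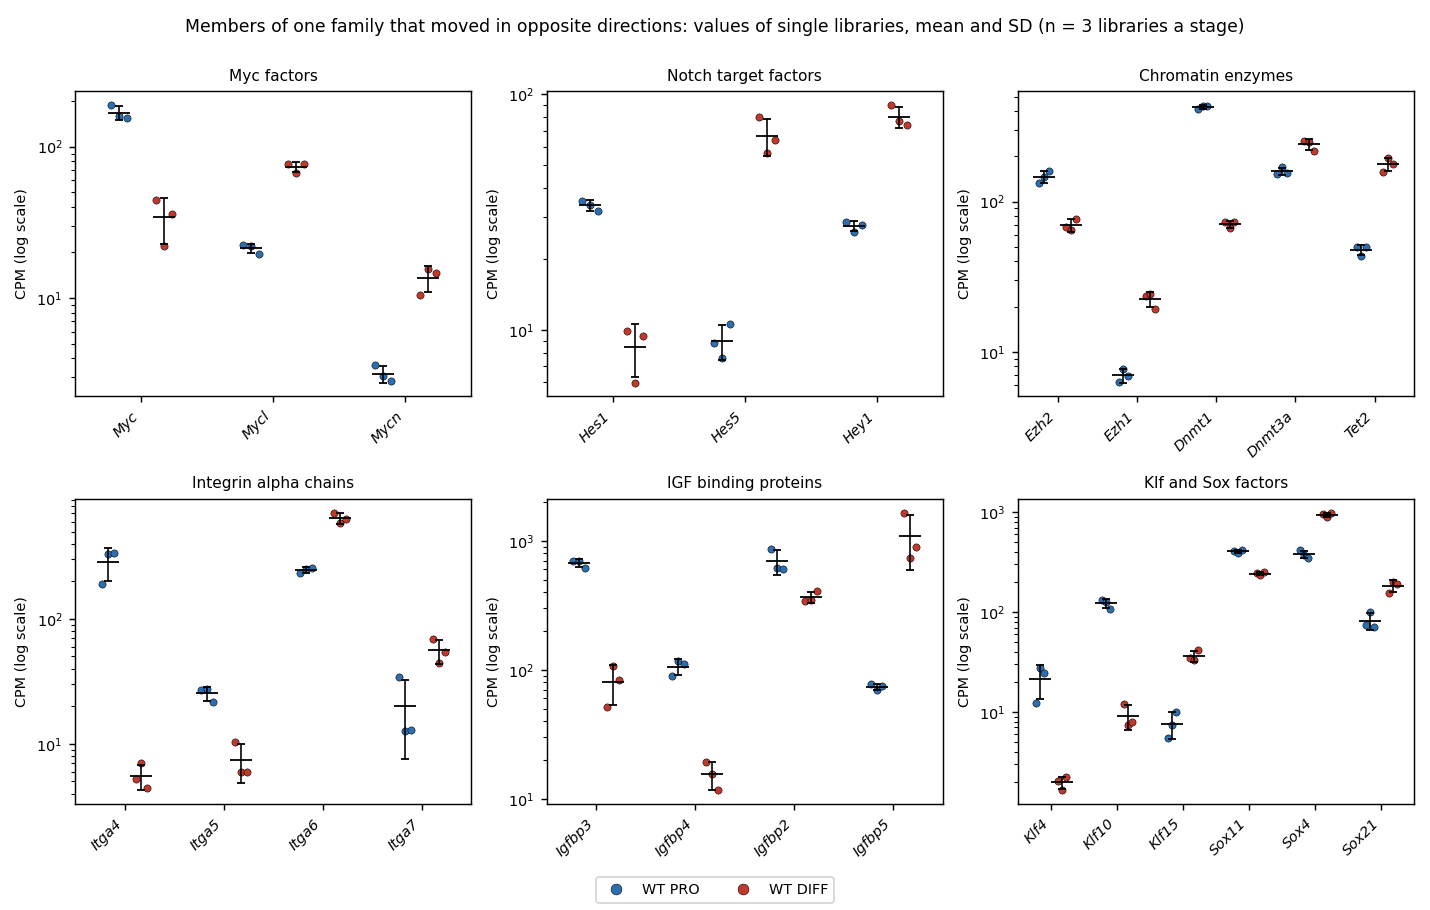
CPM (log scale) of family members that moved in opposite directions, in the single WT PRO (blue) and WT DIFF (red) libraries, with mean and SD (n = 3 libraries a stage), chosen after their values were seen. Myc fell from 156 to 188 CPM to 22.0 to 44.6 CPM while Mycn rose from 2.81 to 3.60 CPM to 10.5 to 15.6 CPM. No gene shown overlaps between the stages, which was a condition for naming genes by the size of their change.

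Of 31 laminin, glycoprotein and proteoglycan genes, 14 were UP and 10 DOWN. Tnc, the tenascin of the neurogenic niche, was DOWN (1829.7, 2030.5 and 1499 CPM in PRO and 543, 738 and 549 CPM in DIFF; log2 fold change -1.56 ± 0.22), as were Sdc1 (29.5, 29.2 and 28.4 to 4.28, 3.56 and 4.55 CPM) and Cspg4, which encodes the NG2 proteoglycan of oligodendrocyte progenitors (64.1, 151 and 103 to 43.8, 26.6 and 25.1 CPM). Thbs1, a thrombospondin, rose from 3.07, 2.23 and 3.00 to 44.8, 85.9 and 68.2 CPM (log2 fold change 4.58 ± 0.32), and the glypican gene Gpc4 from 24.9, 23.02 and 20.01 to 92.4, 179 and 160.1 CPM. Sparcl1 showed how far replicates can differ, with 1.09, 56.5 and 42.2 CPM in PRO and 24.3, 179 and 157 CPM in DIFF, the first library of each stage being the lowest, and it did not pass the test (1.84 ± 1.04) except with the replicate block (adjusted p = 0.0087). In the proteases, Adam12 (312, 391 and 402 CPM in PRO and 18.4, 27.7 and 26.1 CPM in DIFF; log2 fold change -3.94 ± 0.20) and Adamts1 (54.6, 61.7 and 64.8 to 6.92, 8.12 and 6.37 CPM) were DOWN, and the inhibitor genes Timp2 (1.81 ± 0.10) and Timp3 (94.8, 96.01 and 95.5 to 737, 544 and 531 CPM; log2 fold change 2.65 ± 0.15) were UP. Most collagens did not pass the test, 11 of 17. Gja1, the gap junction protein of astrocytes, rose from 131, 145 and 101 to 669, 556 and 425 CPM, and the cadherin gene Cdh11 from 66.1, 51.2 and 48.8 to 285, 256 and 224 CPM.

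Actin genes controlled by SRF split between general and smooth muscle members. Of the 14 general members 10 were DOWN and 2 UP, and all 3 smooth muscle members tested were UP. Tpm4, a tropomyosin, went from 255, 261 and 277 to 40.5, 48.2 and 60.4 CPM and Zyx, of focal adhesions, from 113, 80.9 and 67.00 to 20.3, 16.4 and 16.7 CPM. Acta2, the smooth muscle actin gene, stood at 1.93, 1.52 and 1.71 CPM in PRO and 26.2, 26.6 and 64.2 CPM in DIFF (log2 fold change 4.50 ± 0.52), Myl9 at 3.80, 1.64 and 1.66 CPM in PRO and 27.1, 14.7 and 17.3 CPM in DIFF (log2 fold change 3.06 ± 0.35), and Tagln at 0.834, 1.08 and 1.43 CPM in PRO and 3.56, 3.32 and 3.24 CPM in DIFF. Smooth muscle genes are also made by mural cells, whose other markers are given with the Notch genes.

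The CArG box, to which SRF binds, was found in 6 of 16 promoters of this list (37.5%), in 1.63% of all promoters, in 1.25% of those of DOWN genes and in 1.22% of those of UP genes. Genes that moved in opposite directions held it, and 3 of them are shown with the box in capitals. Myl9, which was UP, has it 161 bases before the start site (chr2:156775293-156775322, plus strand). Actg1, the cytoplasmic gamma actin gene (log2 fold change -1.40 ± 0.11; chr11:120348566-120348595, minus strand), and Srf itself (log2 fold change -0.95 ± 0.12; chr17:46556225-46556254, minus strand) were DOWN and have it 90 and 82 bases before the start site.
Myl9: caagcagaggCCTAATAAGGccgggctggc
Actg1: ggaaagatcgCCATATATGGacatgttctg
Srf: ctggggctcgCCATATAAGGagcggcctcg

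Tubulin genes fell in 8 of 11 cases. Tuba1b went from 850.4, 714 and 669 to 109, 61.9 and 80.7 CPM (log2 fold change -3.17 ± 0.19) and Tubb5 from 1108, 956 and 966 to 185, 132 and 182 CPM (log2 fold change -2.61 ± 0.13), while Tuba4a was UP (1.88, 0.718 and 0.830 to 9.36, 6.47 and 11.2 CPM; log2 fold change 2.98 ± 0.34). Tubulin genes are nearly identical in sequence, and reads may be shared between them. The microtubule-associated protein gene Map1a rose from 159, 171 and 154 to 466, 371 and 343 CPM.

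Cilium genes rose as a group by small steps. Of 43 genes for the primary cilium, 32 were UP and 4 DOWN, with a median of 0.62 and pair medians of 0.57, 0.65 and 0.60. UP were 15 of the 19 intraflagellar transport genes, 5 of 7 of the BBSome and 9 of 12 of the transition zone and related genes. Wdr19, of the retrograde transport complex, rose from 15.8, 18.9 and 18.2 to 53.3, 55.5 and 52.2 CPM (log2 fold change 1.60 ± 0.10). Rfx2, a factor that binds X-box elements of cilium genes, stood at 4.01, 3.91 and 2.95 CPM in PRO and 27.5, 25.6 and 22.9 CPM in DIFF (log2 fold change 2.79 ± 0.20, adjusted p = 1.68e-06), and Foxj1, the factor of motile cilia, at 19.8, 16.4 and 13.7 CPM in PRO and 102, 85.1 and 85.1 CPM in DIFF (log2 fold change 2.44 ± 0.15). Rfx4 was DOWN (-0.38 ± 0.13) and held its call in 3 of 6 fits without a library, with adjusted p of 0.0648 to 0.0952 without PRO replicate 1 or DIFF replicate 2 or 3. Among ependymal markers, whose sum went from 16.3 to 24.0 CPM to 88.2 to 106 CPM, Foxj1 made up most of the value. Dynlrb2, the other one tested, was UP (1.56, 0.997 and 0.784 to 2.24, 2.11 and 1.94 CPM), Rarres2 stood at 2.35, 1.28 and 1.57 CPM in PRO and 0.713, 1.49 and 0.830 CPM in DIFF, Tmem212 was at 0 in all 6 libraries and Ccdc153 at or under 0.305 CPM. The motile cilium genes Dnah9 (0.417, 0.399 and 0.323 to 9.57, 9.53 and 9.21 CPM), Dnaic2 (0.521, 0.758 and 0.784 to 9.77, 6.05 and 6.44 CPM), Drc1 (0.156, 0.359 and 0.184 to 6.41, 5.55 and 5.30 CPM) and Dnah5 (0.156, 0.359 and 0.231 to 4.78, 3.40 and 2.29 CPM), which the filter removed, are given after their values were seen. Hydin, a motile cilium gene that the filter also removed, went the other way (5.16, 6.86 and 7.24 CPM in PRO and 0.865, 0.622 and 0.672 CPM in DIFF).

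The letters GTTGCC, a part of the X-box that RFX factors bind, were found on either strand in 18 of 38 promoters of the cilium list (47.4%), in 12.5% of all promoters, in 12.6% of those of UP genes and in 12.4% of those of DOWN genes. The match is in capitals below for the motor gene Kif3a (log2 fold change 0.80 ± 0.07; chr11:53567259-53567288, plus strand), the transition zone gene Mks1 (log2 fold change 0.78 ± 0.20; chr11:87853179-87853208, plus strand) and Rfx2 (chr17:56831107-56831136, minus strand). They start 98, 24 and 116 bases before the start site.
Kif3a: caccccgcaggcGTTGCCccagtctagcgt
Mks1: gccagcgtctccGTTGCCaggggaacgagg
Rfx2: agcttggtaaccGTTGCCgggcgcaacgcc

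Genes of astrocyte transport and metabolism had the highest median of the 58 lists, 1.63, with 12 of 17 UP and 1 DOWN. Glul, the glutamine synthetase, stood at 241, 214 and 272 CPM in PRO and 1653, 2637 and 2379 CPM in DIFF (log2 fold change 3.19 ± 0.20, adjusted p = 7.93e-07). The glutamate carriers Slc1a3 (650.0, 831 and 822 to 2103, 2567 and 2489 CPM) and Slc1a2 (286, 346 and 253 to 807, 926 and 700.4 CPM) rose with the potassium channel gene Kcnj10 (281, 251 and 298 to 847, 754 and 947 CPM). Ndrg2 had the largest change among the members tested (56.9, 51.1 and 45.9 CPM in PRO and 904, 667 and 660.1 CPM in DIFF; log2 fold change 3.85 ± 0.16). The urea carrier gene Slc14a1, the member removed by the filter, stood at 0, 0 and 0.0461 CPM in PRO and 4.02, 1.37 and 2.29 CPM in DIFF. Aldh1l1, a common astrocyte marker, did not pass the test, its libraries being at 194, 196 and 83.6 CPM in PRO and 136, 500.0 and 312 CPM in DIFF, and S100b did not pass it either (6.04, 19.7 and 31.5 CPM in PRO and 14.5, 8.87 and 13.8 CPM in DIFF). Acsbg1 was DOWN (-0.50 ± 0.13).

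Receptors for glutamate and GABA rose in 11 of 23 cases and fell in 4. Gabbr2, a subunit of the GABA-B receptor, stood at 5.37, 7.70 and 5.49 CPM in PRO and 151, 71.7 and 73.2 CPM in DIFF (log2 fold change 3.97 ± 0.35) and Gabra4 at 1.88, 1.24 and 1.48 CPM in PRO and 51.5, 12.8 and 15.9 CPM in DIFF (log2 fold change 4.11 ± 0.59), with the first DIFF library highest in both. Gabra4 overlaps Gabrb1, named below, on the genome. Since nothing says that the counting used strand, reads they share cannot be told apart. Grm5, the metabotropic receptor of immature astrocytes, was DOWN (295, 298 and 311 to 67.2, 59.8 and 62.8 CPM; log2 fold change -2.26 ± 0.17). Of 16 synaptic genes 8 were UP and 1 DOWN, Syn2 from 62.4, 77.98 and 62.3 to 224, 174 and 162 CPM, while the 6 markers of mature neurons summed to 32.0 to 48.0 CPM in PRO and 36.5 to 52.6 CPM in DIFF. Guidance genes rose in 16 of 35 cases and fell in 2 (6 with the replicate block), with Epha5 from 42.1, 47.5 and 55.7 to 381, 492 and 375 CPM (log2 fold change 3.09 ± 0.17) and Epha4 from 18.3, 10.8 and 18.2 to 83.5, 66.4 and 119.7 CPM. In the oligodendrocyte list 3 of 9 genes tested were UP and 3 DOWN (33.3% each), close to the shares of all genes tested. Of 5 early members 2 were UP and 3 DOWN. Of 4 late members 1 was UP and none DOWN, and their log2 fold changes ran from -0.75 to 3.22. The early factors Olig2 (786, 816 and 681 to 277, 231 and 289 CPM; log2 fold change -1.53 ± 0.11) and Olig1 (-0.94 ± 0.14) were DOWN. Gpr17, a receptor of committed oligodendrocyte precursors, was UP with a wide spread (1.25, 0.319 and 3.37 CPM in PRO and 61.6, 4.39 and 23.5 CPM in DIFF; log2 fold change 4.17 ± 1.30, adjusted p = 0.0201). It lost its call without PRO replicate 1, PRO replicate 2 or DIFF replicate 1, with adjusted p of 0.0597 to 0.0784.

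Of 12 Sox genes 7 were UP and 2 DOWN, and of 19 homeobox genes 8 and 2. Sox4 rose from 414, 371 and 349 to 952, 888 and 985 CPM (log2 fold change 1.31 ± 0.09) while Sox11, a close relative, was DOWN (408, 387 and 419.5 to 244, 233 and 253 CPM; log2 fold change -0.75 ± 0.07). Sox3 was DOWN (-1.10 ± 0.13), and Sox1 (1.17 ± 0.19) and Sox21 (1.16 ± 0.14) were UP. All 4 NFI genes, which promote gliogenesis, were UP, Nfix from 265, 252 and 216 to 759, 721 and 671 CPM (log2 fold change 1.54 ± 0.13). Among Klf factors, Klf10 (133, 126 and 108 to 12.01, 7.46 and 7.87 CPM; log2 fold change -3.77 ± 0.20) and Klf4 were DOWN and Klf15 was UP (5.47, 7.46 and 10.01 to 34.6, 33.1 and 41.3 CPM; log2 fold change 2.23 ± 0.19). Zbtb20, a factor of astrocyte development, rose from 231, 284 and 190.4 to 884, 1221 and 824 CPM. Pax6, a factor of neurogenic progenitors, was UP from 34.9, 34.2 and 37.3 to 63.8, 66.1 and 68.9 CPM (log2 fold change 0.89 ± 0.08). Of 14 clock genes 8 were UP and 1 DOWN, Dbp from 5.32, 6.06 and 4.24 to 53.8, 50.9 and 38.00 CPM (log2 fold change 3.18 ± 0.23) and Per3 from 13.03, 14.96 and 13.3 to 95.6, 97.1 and 68.1 CPM (log2 fold change 2.65 ± 0.15).

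Chromatin genes moved in both directions. Of 12 genes for DNA methylation 5 (41.7%) were DOWN and 4 (33.3%) UP, with a median of -0.05. Of 24 Polycomb genes 9 (37.5%) were DOWN and 7 (29.2%) UP, with a median of -0.16. These shares are close to those of all genes tested, 33.9% DOWN and 33.5% UP. Uhrf1, which brings the maintenance methyltransferase to new DNA (chr17:56303321-56323486 on the plus strand), stood at 199.6, 229 and 243 CPM in PRO and 9.21, 5.39 and 9.25 CPM in DIFF (log2 fold change -4.83 ± 0.18, adjusted p = 6.08e-08), and Dnmt1 went from 414, 429 and 435 to 72.7, 66.5 and 72.5 CPM (log2 fold change -2.61 ± 0.08). The de novo enzyme gene Dnmt3a (0.59 ± 0.09) and the demethylases Tet1 (0.88 ± 0.10) and Tet2 (49.7, 43.3 and 49.5 to 158, 195 and 179 CPM; log2 fold change 1.89 ± 0.11) were UP. In Polycomb complex 2, Ezh2 was DOWN (133, 146 and 159 CPM in PRO and 67.5, 64.4 and 76.7 CPM in DIFF; log2 fold change -1.09 ± 0.11) and Ezh1, the other catalytic subunit, UP (6.25, 7.70 and 6.92 CPM in PRO and 23.5, 24.1 and 19.3 CPM in DIFF; log2 fold change 1.67 ± 0.15). In complex 1, Cbx7 (1.55 ± 0.21) and Pcgf2 (2.35 ± 0.17) were UP. Of 9 HMG genes 8 were DOWN, with Hmga2 at 52.01, 39.5 and 55.4 CPM in PRO and 2.70, 2.69 and 4.19 CPM in DIFF (log2 fold change -3.94 ± 0.21), and Hmga1 and Hmgb2 at -3.15 and -2.71. Smarca2, an ATPase of BAF complexes, rose from 78.1, 91.2 and 78.1 to 186, 229 and 205 CPM. Of 10 histone variant genes 6 were DOWN and none UP, with H2afz from 259, 283 and 342 to 72.8, 54.6 and 73.2 CPM (log2 fold change -2.15 ± 0.17).

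Imprinted genes rose in 10 of 21 cases and fell in 5. Peg3 rose from 222, 208 and 187 to 949, 992 and 819 CPM (log2 fold change 2.15 ± 0.10), Nnat from 303, 315 and 301 to 1129, 669 and 759 CPM, and Cdkn1c, an inhibitor of cyclin-dependent kinases expressed from the maternal allele, from 1.93, 1.72 and 3.64 to 21.6, 11.2 and 19.4 CPM (log2 fold change 2.82 ± 0.44). Peg12 (80.6, 88.95 and 76.7 CPM in PRO and 8.24, 7.21 and 11.4 CPM in DIFF; log2 fold change -3.20 ± 0.15) and Mest (1233, 1003 and 1151 to 321, 382 and 225 CPM; log2 fold change -1.87 ± 0.19), both expressed from the paternal allele, were DOWN.

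**Figure D4:**
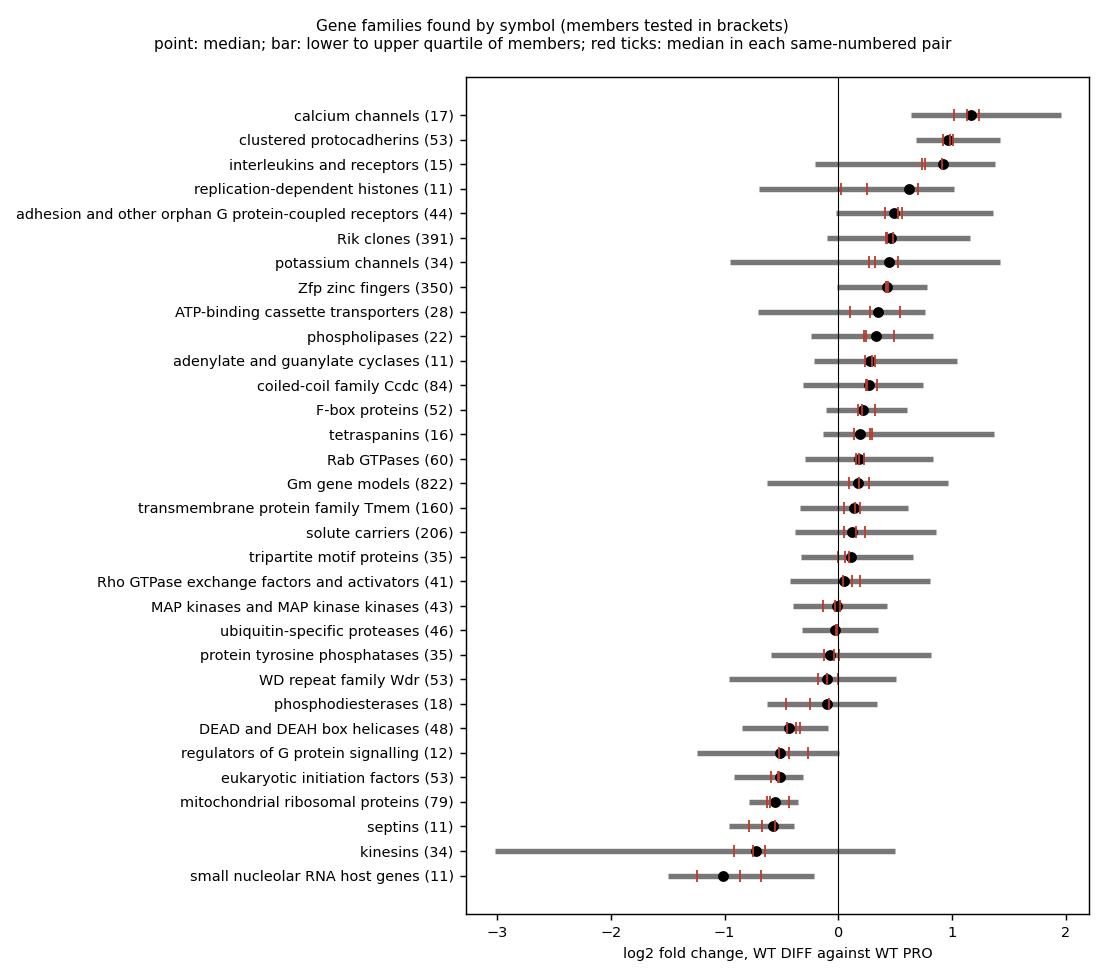
Median log2 fold change (points) of 32 gene families found by symbol, each with at least 10 members tested, with the quartiles of the members (bars) and the medians of the 3 same-numbered pairs (red ticks). Calcium channels (1.17) and clustered protocadherins (0.96) stand highest, and small nucleolar RNA host genes (-1.01) lowest.

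Families were also taken by gene symbol alone. Of 350 Zfp zinc finger genes 197 (56.3%) were UP and 39 (11.1%) DOWN, with a median of 0.43 overall and of 0.42, 0.43 and 0.44 in the same-numbered pairs. Zfp423 rose from 24.9, 18.2 and 11.4 to 108, 86.2 and 86.2 CPM and Zfp365 went from 173, 182 and 178 to 26.2, 32.6 and 29.3 CPM. Of 53 clustered protocadherin genes, cell adhesion molecules that give single neurons an identity, 26 were UP (41 with the replicate block) and none DOWN, with a median of 0.96, and Pcdhb9 stood at 13.97, 7.74 and 10.1 CPM in PRO and 56.7, 23.4 and 31.7 CPM in DIFF. Members of these clusters share exons, so that reads may be shared among them.

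Channels rose for calcium, with 12 of 17 UP and 1 DOWN (2 with the replicate block), and divided for potassium, with 15 of 34 UP and 11 DOWN. Cacna2d2 stood at 3.65, 2.27 and 2.35 CPM in PRO and 21.99, 31.2 and 22.6 CPM in DIFF. Kcnk2, a background potassium channel of astrocytes, rose from 34.4, 27.5 and 28.3 to 230.2, 246 and 216 CPM (log2 fold change 2.93 ± 0.13) and Kcnma1, the large-conductance channel, was DOWN (47.6, 27.3 and 30.5 to 7.58, 6.18 and 6.56 CPM). Of 206 solute carrier genes 81 were UP and 53 DOWN, with Slc8a1, the sodium-calcium exchanger, from 5.68, 6.06 and 6.46 to 74.7, 81.5 and 69.03 CPM (log2 fold change 3.62 ± 0.12), Slc39a12, a zinc carrier, from 11.2, 5.15 and 3.60 to 69.8, 64.6 and 62.1 CPM, and Slc25a25, a mitochondrial ATP carrier, from 156, 132 and 147 to 21.2, 22.4 and 24.00 CPM (log2 fold change -2.69 ± 0.09). Adcy8, a calcium-stimulated adenylate cyclase, stood at 3.96, 4.03 and 3.60 CPM in PRO and 124, 64.8 and 69.8 CPM in DIFF (log2 fold change 4.46 ± 0.37), and Rab3b, a GTPase of secretory vesicles, at 342, 422 and 279 CPM in PRO and 45.5, 51.3 and 37.96 CPM in DIFF (log2 fold change -2.96 ± 0.18).

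Initiation factors (41 of 53 DOWN), DEAD and DEAH box helicases (32 of 48) and septins (9 of 11) fell with the translation lists. Eif4ebp1, the inhibitor of cap-dependent translation, was among them (17.1, 18.5 and 15.03 to 2.75, 4.48 and 3.56 CPM; log2 fold change -2.23 ± 0.23). Of 34 kinesins 20 were DOWN, with Kif2c and Kifc1, which act in mitosis, at -3.46 and -3.26, and 13 were UP, with the axonal motors Kif1b (538, 599 and 542 to 1198, 1477 and 1308 CPM), Kif5c (1.53 ± 0.24) and Kif21a (35.96, 29.3 and 25.3 to 173, 167 and 151 CPM; log2 fold change 2.43 ± 0.13). Of 11 small nucleolar RNA host genes 8 were DOWN, Snhg1 from 45.9, 45.9 and 51.6 to 20.4, 13.5 and 19.4 CPM, and Snhg14, the host of the imprinted Prader-Willi cluster, was UP (25.01, 26.05 and 24.9 to 107, 97.1 and 81.3 CPM; log2 fold change 1.90 ± 0.21).

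Outside every list and family, the genes with the largest positive changes and at least 10 CPM on average included Draxin, a guidance protein of the brain (2.14, 2.23 and 3.32 CPM in PRO and 172, 154 and 179 CPM in DIFF; log2 fold change 6.02 ± 0.20), Hspb8, a chaperone of selective autophagy (2.03, 2.23 and 1.94 CPM in PRO and 112, 109.8 and 109 CPM in DIFF; log2 fold change 5.72 ± 0.16), and Daam2, a formin (10.99, 8.66 and 7.19 CPM in PRO and 265, 399 and 350.5 CPM in DIFF; log2 fold change 5.24 ± 0.22). Draxin overlaps Mad2l2 on the genome, and without strand their shared reads cannot be told apart. In the other direction stood Akap12, a scaffold of protein kinases A and C (276, 322 and 274 CPM in PRO and 8.14, 12.8 and 12.4 CPM in DIFF; log2 fold change -4.71 ± 0.19), and Fam111a, a protease that acts at replication forks (57.5, 63.9 and 27.9 CPM in PRO and 1.17, 1.91 and 1.42 CPM in DIFF; log2 fold change -5.04 ± 0.42). Among F-box genes, Fbxo2, a ubiquitin ligase subunit for glycoproteins, stood at 4.53, 5.82 and 5.76 CPM in PRO and 161, 157 and 129 CPM in DIFF (log2 fold change 4.78 ± 0.16).

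A further set of genes was counted at 1 CPM or more in one stage alone. At least 1 CPM in every DIFF library and less than 1 CPM in every PRO library was found for 584 genes, and the reverse for 155. The filter removed 569 and 145 of these, since it discards any gene under 1 CPM in 4 of the 10 libraries. Since these genes were chosen for this difference, no test of it is given. Of the DIFF genes, Pcp4, a calmodulin regulator, stood highest (0.261, 0.239 and 0.738 CPM in PRO and 42.4, 79.2 and 92.05 CPM in DIFF), followed by Myh8, a myosin heavy chain (0.677, 0.598 and 0.922 CPM in PRO and 71.05, 9.70 and 21.5 CPM in DIFF), and Gabrb1, a GABA receptor subunit (0.990, 0.838 and 0.922 CPM in PRO and 54.96, 20.6 and 16.8 CPM in DIFF). Gabrb1 overlaps Gabra4, given with the GABA receptors, and without strand their shared reads cannot be told apart. Islr was listed at 0, 0.0798 and 0.0461 CPM in PRO and at 23.2, 21.9 and 13.0 CPM in DIFF. Of the PRO genes, the highest were Tle6, a Groucho-related protein (47.3, 44.6 and 37.9 CPM in PRO and 0.356, 0.414 and 0.316 CPM in DIFF), Nptx2, a neuronal pentraxin (43.04, 36.3 and 34.8 CPM in PRO and 0.611, 0.290 and 0.395 CPM in DIFF), and Adamts14, a collagen-processing protease (30.6, 28.00 and 18.1 CPM in PRO and 0.356, 0.290 and 0.158 CPM in DIFF). The activity-regulated gene Arc was in the same set (11.2, 10.3 and 7.52 CPM in PRO and 0.560, 0.124 and 0.119 CPM in DIFF).

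**Figure D5:**
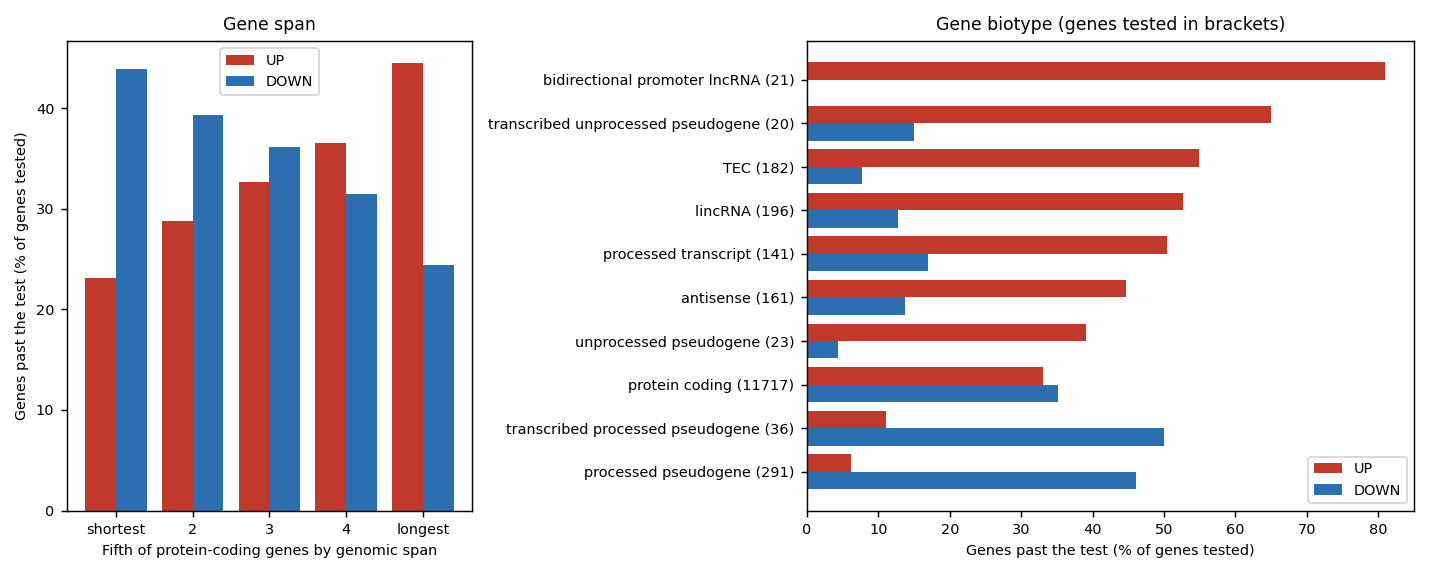
Percentage of genes UP (red) and DOWN (blue) in WT DIFF against WT PRO by quintile of genomic span (11717 protein-coding genes, left) and by gene biotype in GENCODE (right). From the shortest to the longest quintile, UP genes go from 23.1 to 44.5% and DOWN genes from 43.9 to 24.4%.

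Gene length and biotype moved with direction across the genome. In the shortest quintile of protein-coding genes, with spans of at most 9090 bases, 23.1% were UP and 43.9% DOWN. In the longest quintile, from 81200.0 bases, 44.5% were UP and 24.4% DOWN. Spearman's rho of log2 fold change with span was 0.167 over 11717 genes, with exon length 0.173, and with the GC content of the longest transcript -0.066, all across genes, which are not independent replicates. Genes annotated as lincRNA were UP in 52.6% and DOWN in 12.8% of 196 cases, antisense genes in 44.7% and 13.7% of 161, and TEC genes, which are models yet to be checked by experiment, in 54.9% and 7.69% of 182. Processed pseudogenes ran the other way, with 6.19% of 291 UP and 46.0% DOWN, and reads shared with a parent gene make their counts uncertain.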

How the data were processed

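PolyA RNA was made into cDNA with an Ovation kit and sequenced. The authors trimmed the reads (Trimmomatic and cutadapt are in the submitters' processing notes), aligned them with STAR to the Ensembl mouse transcriptome (GRCm38, or mm10, is the build in those notes) and deposited expected counts per gene, estimated with RSEM and not normalised. Whether counting used strand is not given in the sources used here. The deposited estimated counts were whole numbers. A gene was dropped if 4 or more of the 10 libraries had it under 1 CPM, which left 12859. All 10 libraries, as 4 groups of genotype and stage, entered 1 model in edgeR 4.0.16 (TMM scaling, robust quasi-likelihood test, R 4.3.3), and the contrast was WT DIFF minus WT PRO, with Benjamini-Hochberg adjustment over all genes tested and a threshold of 0.05. CPM values use the library total, without TMM. The code was tested on simulated data. Genes at low counts have wide counting error at totals of 19190068 to 25291674.

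The replicate numbers stand in the library labels. The WT libraries of the same number deviated from their group means together (r = 0.248, 0.301 and 0.395 across genes, against -0.221 to -0.0874 for other numbers), so the numbers were taken to pair them. Replicates were not copies, their counts differing by a chi-square of 12.1 to 52.5 per gene. Gene positions and biotypes were from GENCODE vM21 and promoters from RefSeq (GRCm38.p6). The named genes were the key members of each list, the 3 members of each list and family with the largest change in each direction (mean of at least 10 CPM in WT, no overlap between stages), the 10 highest genes counted in one stage alone, and the 10 genes outside lists with the largest change in each direction. Nes, Sox2, Vim, Dusp4, Dusp5, Etv4, Phlda1, Foxo1, Foxo3, Foxo4, Mxd3, Bax, Itga3, Tuba4a, Cct4, Tcp1 and the genes whose promoters are printed were added after their values were seen. A few of the named genes are not reported here. The members and lists were chosen with earlier results of these data known. Alternatives were DESeq2 1.42.0, its size factors in edgeR, other filters, WT libraries alone, the replicate block, thinned counts and fits without each WT library.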

Additional observations from a re-analysis of the deposited data

Results flagged for a closer look

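The stage change of 4 of the 515 named genes differed between the genotypes by the interaction term of the same model (edgeR's quasi-likelihood test, Benjamini-Hochberg adjustment over all genes), out of 50 genes past that threshold. Each fell less in the libraries labelled p27KO, of which there are 2 a stage. Their titles and genotype labels give p27KO, but their descriptions name WT cells, and the titles were followed. Cdkn1b, which encodes p27, was counted in them at 114 and 90.7 CPM in PRO and 140.2 and 137 CPM in DIFF (WT, 103 to 112 and 205 to 209 CPM), so that its level does not settle the label. E2f7, a repressor of E2F targets, had a difference of 2.206 (adjusted p = 0.0323), from a log2 fold change of -4.96 in WT and -2.76 in p27KO. Rrm2, a subunit of ribonucleotide reductase, had a difference of 1.334 (adjusted p = 0.023), from -4.77 and -3.43. Arhgap11a, a GTPase activator of dividing cells, had a difference of 1.322 (adjusted p = 0.0217), from -2.51 and -1.19. Fbxo5, an inhibitor of the anaphase-promoting complex, had a difference of 1.314 (adjusted p = 0.0399), from -3.54 and -2.23.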

How the results depend on the processing

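With the replicate block in a fit of the WT libraries, 4495 genes were UP and 4574 DOWN, and of the 490 named genes called, Eif2ak1, Gm11847 and Slc7a11 lost their call, while Fabp5, Fabp7, Hmox1 and Sparcl1 gained one. In the other alternatives that kept the threshold, UP genes ranged from 3971 without a library to 5189 with no filter and DOWN genes from 3931 to 4984, and no gene was called in the opposite direction. A minimum absolute log2 fold change of 1 left 1840 UP and 1617 DOWN, since it is a stricter rule. Of the genes counted in one stage alone and removed by the filter, 212 (DIFF) and 57 (PRO) remained at 2 CPM. With no filter, which admits genes of low counts, the median of the IGF list became 0.105, of hypoxia targets -0.028, of the oligodendrocyte list 0.126, of kinesins 0.183, of regulators of G protein signalling 0.055 and of replication-dependent histones -1.807 (-0.016 with at least 1 CPM in 4 libraries). The retinoid list had 4 members UP under either looser filter, 1 with thinned counts, and 1 to 3 without a library, and the interferon list 1 to 2. Of the 90 list and family medians, 9 to 20 moved by more than the SD of the 3 same-numbered pairs in each fit without a library, most (20) without DIFF replicate 1. The median of ubiquitin-specific proteases ran from -0.055 to 0.037 without a library. The cause was not tested for the changes without a library or with thinned counts. Depth limits what can be said of genes under 1 CPM.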
